A study of Mus musculus with 8 samples.

Results

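Imprinted genes were followed as a set of 34 genes in the cerebral cortex of newborn mice, chosen by name and read through every array probe whose platform annotation carried one of those names. The arrays held 50 such probes, out of 25697 in all, and they covered 29 of the 34 genes. Cortex was taken at postnatal day 0 from 2 genotypes, wild type and ERRγ-/- (called ERRγ-null here), which lacks the orphan nuclear receptor estrogen-related receptor gamma encoded by Esrrg. There were 2 biological samples per genotype. Illumina bead arrays were run 2 times per sample, 8 arrays in all, and the repeat is called the b array. No other allele, agent or treatment is given in the labels, and the labels used here do not say if a sample came from 1 animal or several, nor name strain or sex. Since separate animals are not stated, p-values rest on the spread among these 4 samples only, part of which may be technical. The standard error (SE) of each gene also draws on the variance of all genes tested. It is therefore not the spread of that gene's own samples.

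An imprinted gene is expressed mainly from the chromosome inherited from 1 parent. Methylation laid down in the egg or sperm and kept after fertilisation tells the parental copies apart. The methylated copy need not be the expressed one. Paternally expressed genes as a class are known for promoting fetal growth, and several maternally expressed ones for restraining it, and many of both kinds are active in the developing brain. Many imprinted genes, though not all, lie in clusters that share a control region, and neighbours of opposite parental origin there are often regulated together. Arrays measure the summed RNA of both copies, so nothing below shows which copy was expressed, and the parental origin given for each gene is background from mouse work. For some genes it depends on tissue or transcript. Grb10 is maternally expressed in most tissues but paternally in neurons, Ube3a is maternally expressed in neurons, and Igf2r is expressed from both copies in neurons. Gnas makes transcripts of opposite origin, and the imprinting of Cd81, Ascl2, Phlda2 and Slc22a18 is best known from placenta. All of these are counted below as maternally expressed.

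Array data do not resolve start sites, but windows before annotated starts are printed here for 3 loci whose values are described at length below. The sequences are the 250 bases before a RefSeq start site (build GRCm38.p6), printed 5′ to 3′ on the gene's own strand. Capitals mark CG dinucleotides, the kind of site at which imprints are methylated. Methylation was not measured, and a CG marked here need not carry an imprint. Peg3 and Usp29, both paternally expressed, start on opposite strands from 1 shared promoter. Their windows (chr7:6730420-6730669 on the minus strand and chr7:6730333-6730582 on the plus strand) share 163 bases, which are each other's reverse complement and hold 5 CG.
Peg3: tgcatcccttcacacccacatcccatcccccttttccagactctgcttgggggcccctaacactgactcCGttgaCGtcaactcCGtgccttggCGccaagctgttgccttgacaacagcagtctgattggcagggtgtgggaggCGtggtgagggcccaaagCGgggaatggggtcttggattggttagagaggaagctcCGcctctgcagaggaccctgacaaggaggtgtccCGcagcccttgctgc
Usp29: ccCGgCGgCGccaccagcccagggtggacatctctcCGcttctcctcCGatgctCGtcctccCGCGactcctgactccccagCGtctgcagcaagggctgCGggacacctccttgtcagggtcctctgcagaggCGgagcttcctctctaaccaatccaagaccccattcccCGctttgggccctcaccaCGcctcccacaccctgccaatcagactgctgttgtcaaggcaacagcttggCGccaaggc

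Igf2 and Mest each have several annotated starts, and those starts differ in CG content. Of the 4 Igf2 windows on chromosome 7, that at chr7:142666817-142667066 has 1 CG and that at chr7:142658805-142659054 has 22, both on the minus strand. Of the 3 Mest windows on chromosome 6, that at chr6:30733256-30733505 has 7 CG and that at chr6:30737800-30738049 has 14, both on the plus strand.
Igf2, window 1: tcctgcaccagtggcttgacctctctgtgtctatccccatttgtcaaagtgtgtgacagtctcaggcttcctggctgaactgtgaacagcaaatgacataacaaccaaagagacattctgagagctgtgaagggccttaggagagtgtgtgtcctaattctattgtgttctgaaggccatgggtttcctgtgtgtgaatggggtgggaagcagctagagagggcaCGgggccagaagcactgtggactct
Igf2, window 3: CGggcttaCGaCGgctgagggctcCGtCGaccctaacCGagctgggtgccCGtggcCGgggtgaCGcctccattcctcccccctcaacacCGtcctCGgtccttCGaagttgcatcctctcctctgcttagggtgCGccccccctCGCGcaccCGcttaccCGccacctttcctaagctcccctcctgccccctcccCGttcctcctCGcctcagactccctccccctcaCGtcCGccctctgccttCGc
Mest, window 1: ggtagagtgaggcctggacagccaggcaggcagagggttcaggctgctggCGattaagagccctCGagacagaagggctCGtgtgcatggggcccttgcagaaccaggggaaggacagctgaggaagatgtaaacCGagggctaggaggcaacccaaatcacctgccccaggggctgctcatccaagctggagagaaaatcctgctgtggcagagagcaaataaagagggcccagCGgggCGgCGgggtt
Mest, window 2: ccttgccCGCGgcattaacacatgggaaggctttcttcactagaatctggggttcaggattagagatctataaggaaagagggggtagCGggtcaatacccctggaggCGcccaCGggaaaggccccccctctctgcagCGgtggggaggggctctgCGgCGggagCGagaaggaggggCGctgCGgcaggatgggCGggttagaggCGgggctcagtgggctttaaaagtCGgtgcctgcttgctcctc

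Windows of imprinted genes had a median of 11.5 CG (44 windows of 29 members with an entry), against 6 over all 32851 windows of the table. Those of members with at least 1 probe kept for testing had a median of 14 (27 windows, from 1 to 40). Those of members whose probes were all at background had a median of 8 (9 windows, from 0 to 21). The same split was not made over all genes, and windows that overlap, as in Gnas and Mest, were each counted. The binding motif of estrogen-related receptors, TNAAGGTCA, was searched on both strands. It was found in 1 of the 44 windows (2.27%), a Meg3 window, and in 1.14% of all windows. Its core AAGGTCA, which lies within it, was found in the same 1 window and in 4.08% of all windows. These matches describe the letters of the windows only.

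Between 24 and 27 of the 50 imprinted gene probes were above background on each array, where 11022 to 12013 of all probes were. A probe counted as above background at a detection p under 0.05, and 24 of the 50 (48%) were above it on all 8 arrays, against 38.7% of all probes. Another 23 were above it on no array, and 3 on some arrays. Unnormalized mean probe intensities lay between 390 and 565 on wild-type arrays and between 547 and 639 on ERRγ-null arrays. Probes above background numbered 11022 to 11607 and 11376 to 12013 in the same order. Both measures overlapped but leaned higher in the null samples. Of 12 markers of cortical neurons, 9 had a probe and 6 were above background on all arrays, among them the layer genes Tbr1 and Bcl11b and the cytoskeletal genes Mapt and Stmn2, while Neurod6 and Snap25 were on none. The Esrrg probe was above background on none of the 8 arrays and does not check the genotype labels. Precision is limited by having 2 samples a genotype.

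No probe carried the names H19, Meg3, Copg2, Snrpn or Zrsr1 in the annotation used, and these genes were not analysed here. A further 10 genes had probes that were above background on no array. They were the paternally expressed Rtl1, Plagl1, Magel2, Peg12 and Sgce, and the maternally expressed Zim1, Asb4, Phlda2, Slc22a18 and Ascl2. Plagl1 encodes a zinc finger transcription factor, Rtl1 a retrotransposon-derived protein, Magel2 a MAGE family protein, Sgce a sarcoglycan, Phlda2 a growth-restraining placental protein and Ascl2 a trophoblast transcription factor. All 3 Plagl1 probes were among the 23 at background, whose lowest detection p was 0.0915 and whose normalized log2 signals lay between 4.72 and 5.49. A probe at background gives no level for its gene and does not show that the transcript was missing. Phlda2, Slc22a18 and Ascl2 lie in the same imprinted cluster as Cd81, which was read on all arrays.

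The remaining 19 genes, 12 paternally and 7 maternally expressed, had at least 1 probe above background on 4 or more arrays and were tested with all other genes, each through its brightest such probe. Of these 19 genes, 0 differed between the genotypes past the threshold (limma, Benjamini-Hochberg adjustment over 8098 genes, 0.05), and 0 had an unadjusted p under 0.05. Over all 8098 genes 1 passed (0.0123%), and 7.22% had an unadjusted p under 0.05. Adjusted p for the 19 genes ran from 0.759 to 0.995. Differences subtract the wild-type mean from the ERRγ-null mean of normalized log2 signal, and ran from -0.28 for Igf2r to 0.31 for Ube3a. The 95% confidence intervals reached from 0.33 to 0.51 to either side of the estimate, with the lowest bound at -0.62 (Igf2r) and the highest at 0.754 (Igf2).

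Most of the imprinted genes had a slightly lower mean in ERRγ-null cortex. The difference was below 0 for 16 of 19 genes (84.2%), against 49.4% of all genes tested, and above 0 for 3 (Igf2, Peg3 and Ube3a), against 50.6%. The median was -0.12, against 0.00 for all genes. It was below 0 for 10 of the 12 paternally expressed genes (median -0.11) and for 6 of the 7 maternally expressed ones (median -0.12). The null samples lay wholly below the wild-type samples for 4 of the 19 genes, where 17.3% of all genes did, and above them for 2, where 17.7% of all genes did. Without wild-type sample 2 the difference was below 0 for 11 of 19 genes, the paternal median was -0.03 and the maternal median 0.01, and with the b arrays alone it was below 0 for 12. No test was made of the list as a whole, and its counts are a description.

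**Figure D1:**
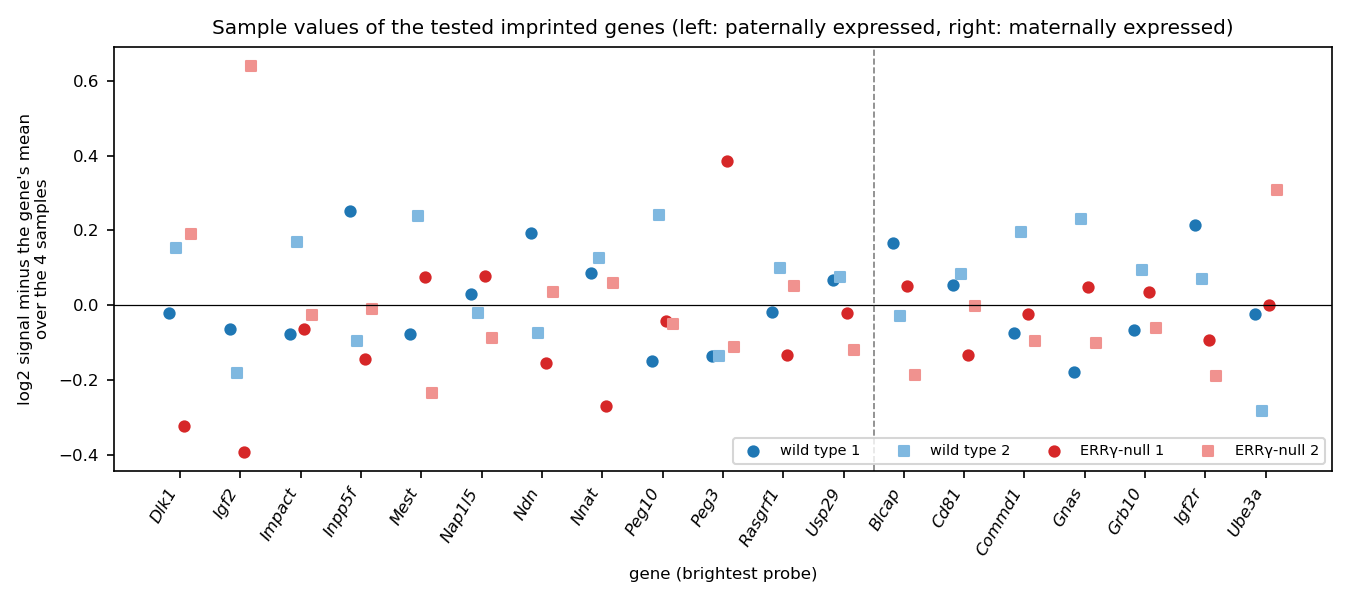
Sample values of the 19 tested imprinted genes, as log2 signal (mean of 2 arrays) minus the gene's mean over the 4 samples; blue points are wild-type samples, red points ERRγ-null samples, and the dashed line parts paternally (left) from maternally (right) expressed genes. The points of the 2 genotypes overlap for most genes, and ERRγ-null sample 2 stands above the others for Igf2.

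Igf2, the paternally expressed fetal growth factor gene, varied most between samples. Its log2 signal was 10.66 and 10.55 in wild-type cortex and 10.34 and 11.37 in ERRγ-null samples 1 and 2. The null samples thus held both the lowest and the highest value, and the genotypes overlapped. On single arrays it was 11.33 and 11.40 in ERRγ-null sample 2 and between 10.27 and 10.71 on the other 6. The gap between the 2 arrays of a sample was at most 0.15, far below the 1.03 between the 2 null samples. The range over samples of 1.03 exceeded that of 99.5% of all genes tested, whose median was 0.34. The genotype difference was 0.25 (SE 0.24, limma adjusted p = 0.920), and it became 0.76 when null sample 1 was left out and -0.27 when null sample 2 was.

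Igf2 is known to be expressed in the meninges and choroid plexus, where both copies are active, and markers of those tissues were set beside it. Of 14 markers of meninges and fibroblasts, all had a probe and 7 were above background on no array (Lum, Ogn, Col1a1, Col3a1, Islr, Aldh1a2 and Ptgds). Their log2 signals, taken at the brightest probe, summed to 78.0 and 77.5 for wild type, and to 76.5 and 82.3 for null samples 1 and 2. The proteoglycan gene Dcn was at 7.18 and 7.06 on the arrays of ERRγ-null sample 2 and between 5.29 and 6.03 on the other 6. Slc6a13, a transporter gene of the meninges, was at 5.87 in ERRγ-null sample 2 and between 4.77 and 4.84 in the other samples, above background on 1 array. Cyp1b1, a fibroblast and mural cell gene above background on 1 array, was at 5.45, 4.98, 4.77 and 5.92 in wild type 1 and 2 and null 1 and 2. The other detected markers did not set ERRγ-null sample 2 apart in this way. Igfbp2, the 1 marker of the list above background on all 8 arrays, was at 9.12, 9.38, 9.23 and 9.45 in the same order. Col1a2 was at 5.83, 5.62, 5.22 and 5.81, and Crabp2 at 6.06, 5.86, 5.83 and 6.02. Foxc1 was at 5.53 and 5.55 in wild type and higher in both null samples, with 6.04 in the second. Of the choroid plexus and ependyma markers, Ttr, Kl, Folr1, Clic6 and Otx2 were above background on no array, and the sum over 8 markers ran from 44.9 to 45.5 in wild-type and from 45.6 to 46.0 in null samples. That sum comes mostly from probes at background, and the 3 detected markers differed among themselves. Sostdc1, a secreted inhibitor gene of choroid plexus, was at 6.17 and 6.58 in wild type and at 6.74 and 7.18 in null samples, highest in ERRγ-null sample 2 (difference 0.59, SE 0.19, limma adjusted p = 0.480). Aqp1, a water channel gene, gave -0.23 by its brightest probe, which was lowest in ERRγ-null sample 2. Another Aqp1 probe, above background on 2 null arrays and 0 wild-type arrays, went the other way. That dimmer probe was at 5.72 and 5.53 in wild type and at 5.78 and 5.99 in null samples, highest in ERRγ-null sample 2. The remaining Aqp1 probe was above background on no array. Foxj1, a gene of ciliated cells, gave 0.02. Endothelial and pericyte markers summed to 99.8 and 98.8 in wild-type and to 98.1 and 100.8 in null samples (14 markers). The part of these tissues in the Igf2 value was not tested, and in bulk tissue more cells of a type and more RNA per cell cannot be told apart.

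**Figure D2:**
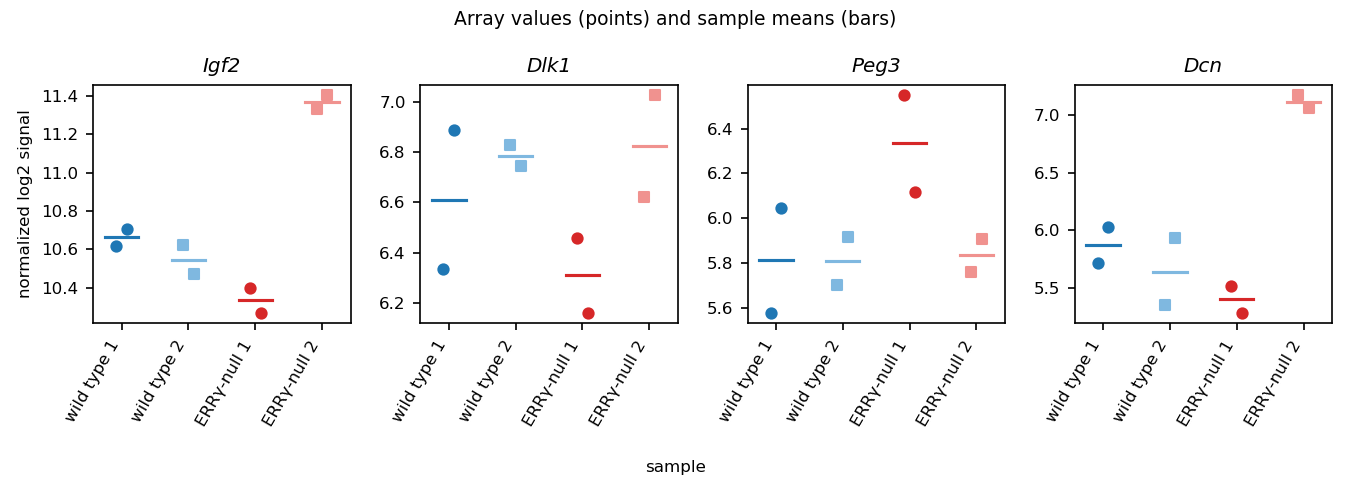
Normalized log2 signal on each of the 8 arrays (points, 2 per sample) with the mean of each sample (bars) for the imprinted genes Igf2, Dlk1 and Peg3 and for Dcn, a marker of meninges and fibroblasts. Both arrays of ERRγ-null sample 2 lie above all others for Igf2 and Dcn, whereas Dlk1 and Peg3 do not share that order.

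Receptors of IGF2 showed small differences of opposite sign. Igf2r encodes the receptor that binds IGF2 and carries it to lysosomes, and is counted here with the maternally expressed genes. Its log2 signal was 8.33 and 8.19 in wild-type and 8.02 and 7.93 in null samples. Null samples were lower throughout, by 0.16 at the closest. The difference was -0.28 (SE 0.16, limma adjusted p = 0.759), and a second Igf2r probe, at 7.63 and 7.90 in wild-type and 7.52 and 7.58 in null samples, gave -0.22. Over the alternatives the Igf2r difference ran from -0.41 to -0.16. Igf1r, the non-imprinted receptor through which IGF2 signals, differed by 0.21 (limma adjusted p = 0.865). Among 11 tested genes of the IGF and insulin axis, 5 were higher and 6 lower, and 0 passed the threshold. The IGF-binding protein genes Igfbp4 (-0.48, SE 0.17) and Igfbp3 (-0.46, SE 0.17) were the 2 with an unadjusted p under 0.05, with limma adjusted p of 0.514 and 0.527, where 7.22% of all genes had such a p. Both were lower in both null samples than in either wild-type sample, as were 17.3% of all genes.

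Mest, a paternally expressed gene for a hydrolase-like protein of embryonic mesoderm and brain, was read by 3 probes whose differences were unequal in size. Its middle probe by brightness lay at 7.67 and 7.23 in the wild-type samples and at 7.09 and 6.77 in the null samples. Both null samples were therefore lower, by 0.14 at the closest, while the wild-type samples were 0.44 apart. Its difference of -0.52 (SE 0.19) had the smallest p among all imprinted gene probes and did not pass over the 11568 probes kept (limma adjusted p = 0.589). The brightest Mest probe lay at 7.90 and 8.22 in wild-type and at 8.06 and 7.75 in null samples, with overlapping genotypes and a difference of -0.16. The dimmest probe, above background on 3 of the wild-type arrays and 2 of the null ones, gave -0.18. Sample order differed between these probes, since wild-type sample 1 was highest on the second and wild-type sample 2 on the other 2.

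Rasgrf1, a paternally expressed gene for a neuronal Ras exchange factor, had 4 probes, of which 2 were above background and pointed in opposite directions. The brighter lay at 8.75 and 8.86 in wild-type and at 8.63 and 8.82 in null samples, a difference of -0.08 (SE 0.16). The dimmer lay at 7.40 and 7.63 in wild-type and at 7.70 and 8.12 in null samples, with no overlap and a difference of 0.39 (SE 0.18, limma adjusted p = 0.691 over all probes). Both probes are annotated to the same transcript. In Nnat, a paternally expressed gene for a small membrane proteolipid of developing neurons, the 2 probes are annotated to different transcripts and gave -0.21 and 0.13.

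**Figure D3:**
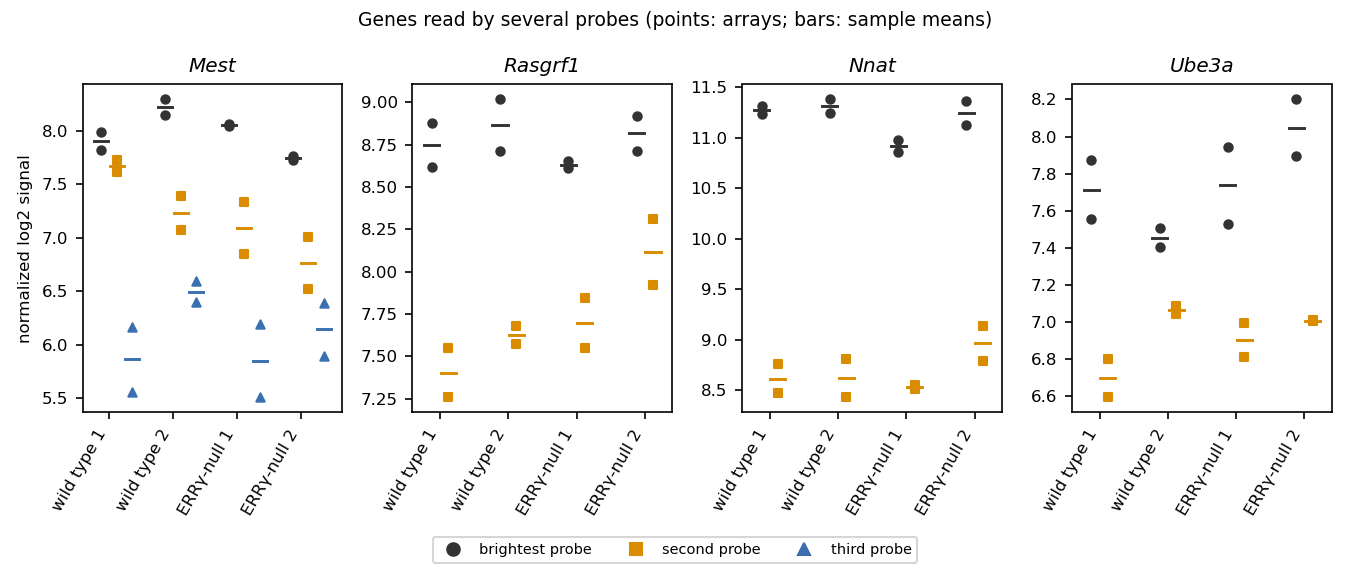
Normalized log2 signal of Mest, Rasgrf1, Nnat and Ube3a on single arrays (points) with the mean of each sample (bars), by probe, for the probes above background on 4 or more arrays. The Rasgrf1 probes part in direction, and only the second Mest probe of its gene has null samples wholly below wild type.

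Over all 27 imprinted gene probes kept, 21 had a difference below 0 (77.8%), against 48.8% of all 11568 probes, and 0 passed the threshold, against 0.00864% of all probes. The Mest and Rasgrf1 probes were the 2 with an unadjusted p under 0.05, where 7.07% of all probes had one: Mest lower (3.5% of all probes) and Rasgrf1 higher (3.57%). Null samples lay wholly below wild type for 6 of the 27 probes, against 17% of all probes, and wholly above for 3, against 18.1%. Sample values spanned more than 0.5 for 8 of them, against 22.9% of all probes. Of the 7 genes with several kept probes, Rasgrf1 and Nnat had probes of both signs and the other 5, Mest, Igf2r, Commd1, Gnas and Ube3a, had 1 sign.

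**Figure D4:**
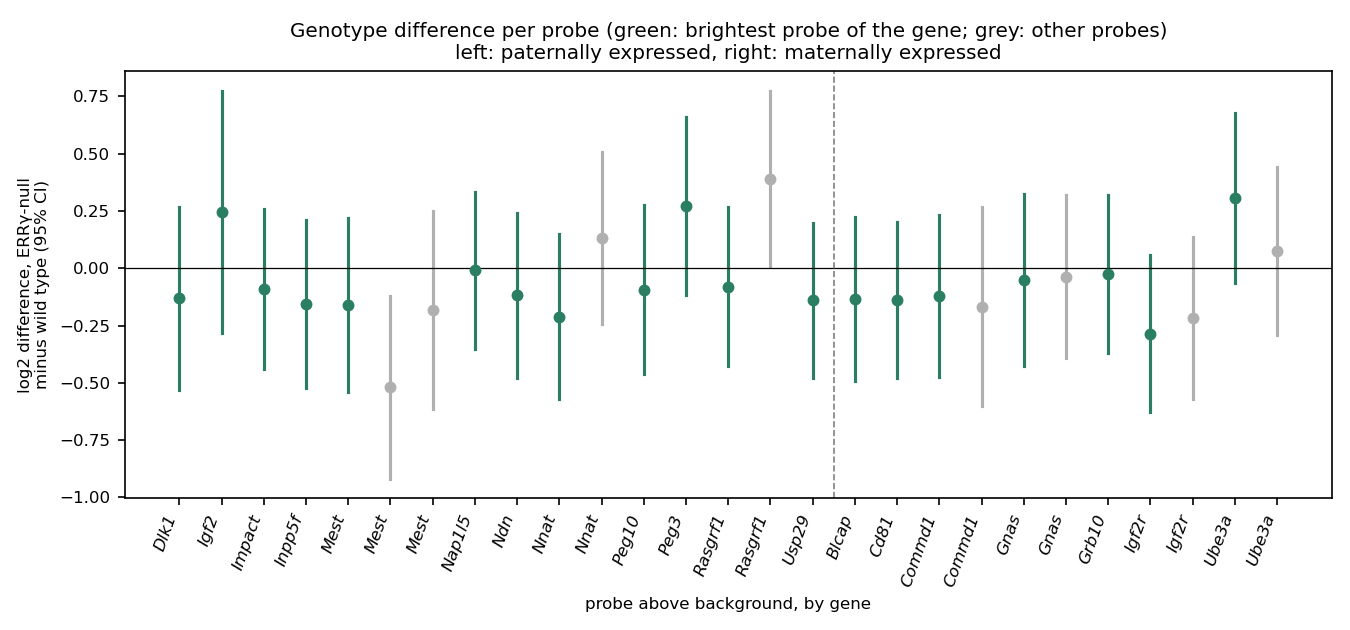
Log2 difference between ERRγ-null and wild-type cortex with its 95% confidence interval from limma, for the 27 imprinted gene probes above background on 4 or more arrays; green marks the brightest probe of a gene, grey its other probes, and the dashed line parts paternally (left) from maternally (right) expressed genes. Most points lie slightly below 0, and 2 grey intervals, 1 of Mest and 1 of Rasgrf1, do not contain 0.

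The Peg3 cluster holds the paternally expressed pair whose promoter is printed above and the maternally expressed Zim1. Peg3, a zinc finger gene with roles in maternal behaviour and apoptosis in mice, was dim, and both genotypes had 2 arrays with it above background. It lay at 5.81 in each wild-type sample and at 6.33 and 5.83 in the null samples. Separation of the genotypes rested on 0.02 between wild-type sample 1 and ERRγ-null sample 2, and the difference of 0.27 (SE 0.18, limma adjusted p = 0.818) was 0.02 without ERRγ-null sample 1. Usp29, a ubiquitin protease gene, lay at 8.82 and 8.83 in wild-type and at 8.73 and 8.63 in null samples. Both null samples were below, by 0.09 at the closest, and the difference was -0.14 (SE 0.16, limma adjusted p = 0.930). The partners of the shared promoter thus had differences of opposite sign, and neither passed.

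In the cluster linked in humans to Prader-Willi and Angelman syndromes, Ndn and Ube3a were the genes of the followed set that were tested. Mkrn3 and Snurf, of the same cluster, belong to a further list described below. Ndn, a paternally expressed MAGE family gene of differentiated neurons, lay at 13.18 and 12.91 in wild-type and at 12.83 and 13.02 in null samples, overlapping, with a difference of -0.12 (SE 0.16). Ube3a, the ubiquitin ligase gene that neurons express from the maternal copy, had the highest difference of the 19 genes. It lay at 7.71 and 7.46 in wild-type and at 7.74 and 8.05 in null samples. The genotypes were 0.02 apart at the closest, and the 2 arrays of ERRγ-null sample 1 differed by 0.41. The difference was 0.31 (SE 0.17, limma adjusted p = 0.759), and a second probe of another transcript gave 0.07 with overlapping samples. The other 2 Ube3a probes were above background on no array.

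At the Dlk1 cluster only Dlk1, a paternally expressed transmembrane ligand gene related to Delta, was measured. Its 4 sample values were 6.61, 6.79, 6.31 and 6.82 in the order wild type 1 and 2, then null 1 and 2. ERRγ-null sample 1 was lowest and ERRγ-null sample 2 highest, as for Igf2, but the arrays of wild-type sample 1 were themselves 0.55 apart. The difference was -0.13 (SE 0.18). Dlk1, Igf2, Peg3 and Ube3a were the 4 of 19 genes whose samples spanned more than 0.5, where 20.7% of all genes did.

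Nnat lies inside an intron of Blcap, and each was read by a bright probe. By its brighter probe Nnat was at 11.27 and 11.31 in wild-type and at 10.92 and 11.25 in null samples, with a difference of -0.21 (SE 0.16, limma adjusted p = 0.879). ERRγ-null sample 1 was the lowest, and the other 3 samples lay close together. Blcap, a gene for a small membrane protein with maternal bias in brain, was at 10.89 and 10.70 in wild-type and at 10.78 and 10.54 in null samples, overlapping, with -0.13 (SE 0.16). Gnas, which encodes the stimulatory G protein subunit and related proteins, gave -0.05 and -0.04 with its 2 kept probes, and its other 3 probes were above background on no array. Peg10, a retrotransposon-derived gene, gave -0.09 at a dim signal, from 5.98 to 6.37 over the samples, and 3 wild-type arrays and all 4 null ones had it above background. Its neighbours Sgce and Asb4 were not above background.

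Cd81, a tetraspanin gene, lay at 12.50 and 12.53 in wild-type and at 12.31 and 12.45 in null samples, both lower than either, with a difference of -0.14 (SE 0.16, limma adjusted p = 0.932). Inpp5f, an inositol phosphatase gene with an imprinted brain transcript, had 1 of 3 probes above background. That probe ran from 12.21 to 12.61 over the samples and gave -0.16. All 3 probes are annotated to the same transcript, and whether that transcript is the imprinted one was not examined. Commd1, a gene of copper handling and NF-κB control, gave -0.12 and -0.17 with 2 probes, the second of which spanned 0.66 over the samples. Impact, a gene that restrains the kinase GCN2, gave -0.09. Values closest to 0 belonged to Grb10, an adaptor gene that dampens insulin and IGF signalling, with -0.03 (95% confidence interval -0.36 to 0.31), and to Nap1l5, a nucleosome assembly family gene, with -0.01 (-0.34 to 0.32). Their 4 samples spanned only 0.16 and 0.17.

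Arrays of different genotypes were no further apart, by this median, than arrays of different samples of 1 genotype. Over the 19 genes, the standard deviation (SD) of log2 differences between arrays had a median of 0.228 for the 2 arrays of 1 sample (4 pairs), 0.339 for different samples of 1 genotype (8 pairs) and 0.303 for different genotypes (16 pairs). For all genes tested these medians were 0.283, 0.321 and 0.330. Leaving out Igf2 brought the values of the other 18 genes to 0.234, 0.295 and 0.286, in a calculation chosen after its values were seen. Imprinted genes had a median range over samples of 0.39, against 0.34 for all genes.

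**Figure D5:**
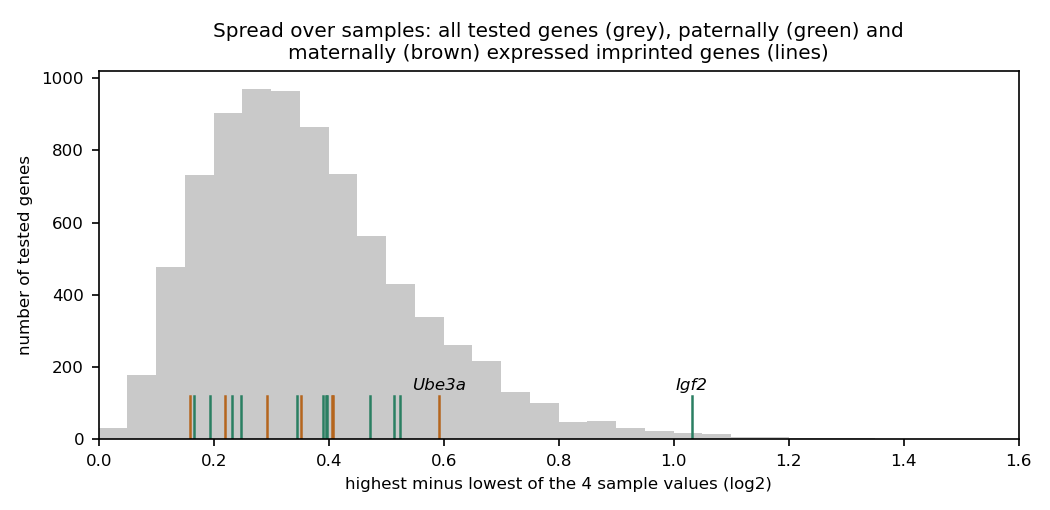
Histogram of the highest minus the lowest of the 4 sample values (log2) for the 8098 genes tested, with lines for the 12 paternally (green) and 7 maternally (brown) expressed imprinted genes; 2 genes beyond 1.6 are not drawn. Igf2 lies at 1.03 in the right tail, and the other members lie between 0.16 and 0.59.

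Other imprinted genes, from a further list of 43, gave 14 tested genes with a median difference of -0.06, 6 higher and 8 lower, and 0 past the threshold. Trappc9, the 1 of the 14 with an unadjusted p under 0.05 (7.22% of all genes), a trafficking gene that hosts the imprinted Peg13 transcript, was at 7.31 and 7.36 in wild-type and at 7.75 and 7.79 in null samples. Both null samples were higher by more than the spread within either genotype, yet the difference of 0.43 (SE 0.15, limma adjusted p = 0.510) did not pass over all genes. Mkrn3, a paternally expressed ubiquitin ligase gene of the Prader-Willi cluster, was at 9.73 and 9.62 in wild-type and at 9.33 and 9.51 in null samples, a difference of -0.26 (limma adjusted p = 0.802). Qpct, a gene for glutaminyl cyclase, gave -0.17. Snurf, of the same locus as Snrpn, was at 13.4 and 13.2 in wild-type and at 13.4 and 13.2 in null samples. Its difference was 0.02 (limma adjusted p = 0.992). A second Snurf probe, at 9.48 and 9.43 in wild-type and at 9.67 and 9.34 in null samples, also had overlapping genotypes.

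Factors that keep or read imprints gave 13 tested genes of 24 listed, with a median of -0.02, 6 higher, 7 lower and 0 past the threshold. Arid4a, a chromatin gene known to act at the Prader-Willi imprinting centre in mice, was at 6.03 and 6.07 in wild-type and at 6.88 and 6.21 in null samples. It was the 1 gene of the 13 with an unadjusted p under 0.05 (0.49, SE 0.19, limma adjusted p = 0.585), a share close to the 7.22% of all genes, and ERRγ-null sample 1 was the highest. The methyltransferase gene Dnmt3b gave -0.22 with overlapping samples. Ctcf, whose protein insulates the Igf2 and H19 enhancers, was at 9.67 and 9.52 in wild-type and at 9.35 and 9.48 in null samples, a difference of -0.18 (limma adjusted p = 0.904).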

How the data were processed

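Gene expression was measured on 8 Illumina bead arrays of newborn mouse cortex, 2 for each of 2 samples per genotype. Per the file headers, the authors deposited a mean bead intensity and a detection p-value for each probe and array. The intensity is linear and, as far as the values show, neither background-subtracted nor normalized. The submitters' processing notes name GenomeStudio, without a version. A further deposited table of normalized intensity, on 1 common distribution (column medians 142.5 to 142.7), was an alternative, and its method stays unknown.

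Background was estimated from the detection p-values with neqc of limma 3.58.1 in R 4.3.3 (offset 16, quantile normalization, log2). Probes with detection p under 0.05 on at least 4 of 8 arrays were kept, 11568 in all, and the brightest kept probe stood for a gene. Arrays of a sample were averaged, so n is 2 per genotype, and genotypes were compared with lmFit and eBayes, two-sided, adjusted over 8098 genes, or over all kept probes for single probes. Residual degrees of freedom were 2 per gene, to which eBayes added 14.0. The fit was run on data simulated from its own variance model, which checks the code but not whether that model holds for these arrays. Of 25697 probes, 23846 had 1 gene symbol, 0 several and 1851 none. All 50 member probes matched RefSeq (GRCm38.p6) by Entrez identifier, which also gave the promoter windows. RefSeq names no probe position, so no probe coordinates are given.

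Members, lists and tests were chosen with earlier results of these data known. Full values went to members with a gene or probe at unadjusted p under 0.05, with samples spanning over 0.5, above background in 1 genotype only (there were 0), or with the smallest p of a cluster with 2 or more kept members, and to up to 3 genes of each further list with the smallest p. Values of Snurf were given as well, because Snrpn of the same locus had no probe under its name. Alternatives changed background correction, normalization, filter, use of arrays, variance prior, probe choice, the replicate number as a block, and each sample left out.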

Additional observations from a re-analysis of the deposited data

How the results depend on the processing

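No member gene passed the threshold under the 19 alternatives, nor a member probe under the 17 that apply to probes, and the lowest adjusted p of a member gene was 0.268 (Ube3a) and of a member probe 0.254 (Rasgrf1), both with median scaling. All genes past it, 1 in the fit reported, numbered 20 with median scaling (19 higher), 12 with the replicate block, 0 to 22 with 1 sample left out, and 0 without a filter on dim probes, with a filter on all 8 arrays, with the first arrays, with the b arrays, with robust eBayes and with a gene's probes averaged. Members at an unadjusted p under 0.05, 0 as reported, were 2 with median scaling (Igf2 and Ube3a), 1 without a filter (Igf2r), 1 with the first arrays (Ube3a), 1 with the most variable probe (Mest) and 0 to 2 with 1 sample left out. Under median scaling the median difference over all genes was 0.17; differences are given relative to that shift, but the calls and p-values of that setting, 0.268 and 0.254 included, still carry it. The maternal median was -0.042 without a filter, where genes at background enter. With 1 sample left out it ran from -0.15 to 0.014 and the paternal median from -0.14 to -0.029.

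Of 359 recalculated member differences, 139 equalled the reported one, mostly because the alternative changed only the variance, the filter or a balanced term. Sign changed in 26 of the other 220, and the cause was not tested. Values of the other sign were 0.016 for Nap1l5 with median scaling, and with the first arrays 0.21 for Grb10 and 0.18 for Nap1l5. With the b arrays they were 0.026 for Ndn, 0.051 for Impact, 0.21 for Gnas and 0.10 for Rasgrf1, and with the dimmest array left out 0.046 for Impact and 0.000328 for Gnas. The mean of probes gave 0.16 for Rasgrf1, and the most variable probe 0.39 for Rasgrf1 and 0.13 for Nnat. With 1 sample left out, differences ran from -0.25 to 0.015 for Ndn, from -0.092 to 0.073 for Nap1l5, from -0.33 to 0.017 for Inpp5f, from -0.11 to 0.054 for Grb10, from -0.21 to 0.034 for Impact, from -0.29 to 0.10 for Peg10, from -0.26 to 0.15 for Gnas, from -0.26 to 0.014 for Commd1, from -0.39 to 0.12 for Dlk1, from -0.17 to 0.011 for Rasgrf1 and from -0.27 to 0.76 for Igf2.

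The replicate number was not taken to pair samples: deviations of samples with the same number correlated at 0.0081 across genes, and labels name no shared litter. In this balanced design the replicate block cannot move a difference, so the medians of -0.11 and -0.12 under it are no check, and only p-values and counts could change. File headers gave no chip or scan, so that alternative was not run. With 2 samples per genotype, member differences under about 0.33 to 0.51, the reach of their unadjusted 95% intervals, could not be told from 0. Larger differences also failed the adjusted threshold, such as -0.52 for a Mest probe (limma adjusted p = 0.589) and 0.59 for Sostdc1 (limma adjusted p = 0.480).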
